A study of Mus musculus with 24 samples.

Results

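The genes described here are 46 mouse genes of ribosome biogenesis and the nucleolus, chosen by name for their known roles by a rule that uses no measured value, although earlier results of these data were known when the list was made. All 46 were found, through the RefSeq accessions of their probes, among the 22911 gene symbols on an Agilent array that was hybridised with Cy3-labelled RNA of cultured tumour lines. They comprise 5 nucleolar scaffold and rDNA-associated proteins, 5 genes of the RNA polymerase I machinery, 7 genes of the small nucleolar ribonucleoproteins (snoRNPs), 12 factors of the small ribosomal subunit, 16 factors of the large subunit, and *Myc*. The series compared parental tumour cells with cells isolated from mice in tumour dormancy, and the question here was whether RNA of the ribosome assembly line differed between these states.

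The melanoma arrays held B16-M (3 arrays), the parental B16-F1 melanoma cells carrying GFP, and B16-D (4 arrays), dormant cells recovered from syngeneic mice that had received an immunotherapy. B16-D-733 (4 arrays), B16-D-735 (3) and B16-D-739 (3) were read as the second generation of dormant melanoma lines, from a brain site. The titles of B16-D-733 replicates 1 and 3 carry the same sample number and both arrays lay on slide 3, with values that were not identical, so they may be the same sample hybridised again, and the 4 B16-D-733 arrays may then stand for 3 samples. A date stands in the titles of 6 arrays, 3 of B16-D (replicate 2 among them) and 3 of B16-D-733, and in no title of B16-M or of another line. Which of the DB#1, DB#2 and DB#3 lines each of them is, is not given in the sources used here. The leukemia arrays held M0-p20 (4 arrays) and J365-p20 (3 arrays), read as parental DA1-3b myeloid leukemia cells and their dormant derivative DA1-3b/D365, a reading that is inferred since their titles name neither line. In the paper D365 gives the day of dormancy, and its first-generation dormant melanoma cells are from the same day. The immunotherapy of its models was vaccination with irradiated cells, overexpressing GM-CSF in melanoma and an interleukin in leukemia. The p20 in the leukemia titles is not explained there. All lines had been expanded in vitro before RNA was taken, so the values describe cultured lines derived from dormant tumours and not cells during dormancy, and each dormant state is represented by a single line or by 3 sister lines. The labels do not say that replicates came from separate cultures, so p-values measure the spread between arrays, which may be technical.

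Of the non-control spots, 45.96% to 55.77% were well above background on 23 arrays and 90.3% on B16-D replicate 2, which was left out of all results unless it is named. All 7 melanocyte markers were well above background on every melanoma array, with a summed log2 level of at least 10.46, and all 7 haematopoietic markers on every leukemia array (6.20 to 6.74). The melanocyte list summed to 0.57 to 1.36 in M0-p20 and 1.48 to 2.69 in J365-p20. In each of these lines 3 of its 7 markers were above background on all arrays. The endothelial list summed to -1.53 to -1.13 in M0-p20 and -1.19 to -1.07 in J365-p20. The haematopoietic list summed to -1.92 to 0.56 in the melanoma lines and was highest in B16-M, while the fibroblast list was highest in B16-D-735 (0.13 to 0.60, against -1.82 to -0.39 in the other melanoma lines). Endothelial markers stayed between -3.91 and -3.20 in the melanoma lines, with 3 of the 4 below background on every array of each line. The astrocyte list summed to 3.09 to 3.51 in B16-M, 1.83 to 2.86 in B16-D and 1.87 to 3.48 in the second-generation lines. The part of these differences in the results below was not tested.

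Ribosomes are made in the nucleolus, where RNA polymerase I transcribes the long precursor of the ribosomal RNAs. Box C/D and H/ACA snoRNPs modify this precursor, and a succession of assembly factors, GTPases and helicases cuts and folds it, together with ribosomal proteins, into the small and the large subunit. The transcription factor MYC is well known for driving many genes of this pathway, and ribosome production is high in growing cells.

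MYC binds, with its partner MAX, the E-box CACGTG, a palindrome that reads the same on both strands. Promoter windows from 250 bases before to 50 bases after the start of a gene were available for 39 of the 46 genes (RefSeq, GRCm38.p6). CACGTG occurred in the windows of 9 of the 39 (23.1%), beside 8.09% of the 27025 gene symbols in the same table and 7.15% of its 32851 windows. The 9 genes were *Ltv1*, *Mybbp1a*, *Nop2*, *Pes1*, *Rrn3*, *Tsr1*, *Utp18*, *Utp20* and *Wdr43*. In *Nop2*, *Rrn3* and *Utp18* the motif lay before the start, and in the other 6 within the first 50 transcribed bases. Among the genes with a window that passed the threshold between B16-D and B16-M, 2 of 8 held the motif, and 7 of the 31 that did not pass. Shown here are the 250 bases before the start of *Nop2*, which encodes a methyltransferase of the large-subunit rRNA and was higher in B16-D, and of *Rrn3*, which encodes the initiation factor of RNA polymerase I and did not pass the threshold although it has a pair of motifs. Capitals mark CACGTG, whose first base lies 60 bases before the start in *Nop2* and 215 and 48 bases before it in *Rrn3*.
Nop2, chr6:125131633-125131882, plus strand: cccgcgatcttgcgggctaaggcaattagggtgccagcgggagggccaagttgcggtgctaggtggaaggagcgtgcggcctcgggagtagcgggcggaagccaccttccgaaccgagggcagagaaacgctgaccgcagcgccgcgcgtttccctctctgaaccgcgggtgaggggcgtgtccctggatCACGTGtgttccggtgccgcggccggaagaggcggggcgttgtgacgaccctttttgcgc
Rrn3, chr16:13780449-13780698, plus strand: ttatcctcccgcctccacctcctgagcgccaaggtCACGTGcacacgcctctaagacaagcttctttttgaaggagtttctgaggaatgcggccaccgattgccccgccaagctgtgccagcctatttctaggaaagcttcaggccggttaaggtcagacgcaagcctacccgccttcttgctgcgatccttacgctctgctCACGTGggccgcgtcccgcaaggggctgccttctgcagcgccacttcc
A match describes letters only, and binding of MYC was not measured in these arrays.

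All levels below are log2 intensities relative to the 75th percentile of the array, from the brightest probe of each gene, so that a difference of 1 is a doubling. Levels are compared between lines for the same probe and never between genes. Of the 46 genes, 45 were well above background on every array of all lines. The exception was *Utp18*, which encodes a component of the small-subunit processome. It was well above background on 10 of the 16 melanoma arrays and on 2 of the 7 leukemia arrays, which left it untested in leukemia.

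Between dormant B16-D and parental B16-M cells a minority of the ribosome assembly genes passed the test, *Myc* and factors of both subunits among them. In the limma fit of the melanoma arrays, with p-values adjusted by Benjamini-Hochberg across 24310 genes, 11 of the 46 genes passed an adjusted p of 0.05 and all 11 were higher in B16-D. Here and below the genes tested include transcripts without a gene symbol, each counted as a gene. Shares and medians over all genes include them too. Among all genes tested, 2.00% were called higher. The 46 genes had a median log2 difference of 0.49 (range -0.49 to 1.12), beside -0.04 over all genes, and 43 of them had a value above 0, beside 46.1% of all genes. For 27 of the 46 genes every B16-D array lay above every B16-M array, which held for 10.9% of all genes tested, and for none did every B16-D array lie below. The number of calls depended on single arrays: without B16-M replicate 1, or without replicate 2, no member passed, without B16-M replicate 0 there were 17, and without B16-D replicate 0, 1 or 3 there were 2, 3 and 5. The median difference kept its sign in each case and ranged from 0.39 to 0.63 as arrays of these lines were left out in turn. With the other melanoma lines taken out of the fit no member passed, with B16-D replicate 2 added or with no filter on dim probes there were 2, and with the date in the title as a covariate there were 5.

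*Myc* itself had the largest difference of the 46. Its log2 level was 0.91, 0.54 and 0.66 on the B16-M arrays and 1.79, 2.03 and 1.64 on the B16-D arrays (replicates 0, 1 and 3). The lines did not overlap, and the difference was 1.12 (standard error 0.22, adjusted p = 0.0148 from limma), or 2.17-fold. B16-D replicate 2, left out of the fit, was also above all B16-M arrays, at 1.58. A second probe of *Myc* gave 1.08. Left without B16-M replicate 1, the adjusted p of *Myc* was 0.075 with a difference of 1.03.

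Among the nucleolar scaffold proteins, *Npm1*, which encodes the histone chaperone nucleophosmin, stood at 6.25, 5.84 and 5.96 in B16-M and at 6.77, 6.56 and 6.60 in B16-D. Every B16-D array in the fit was above every B16-M array, and the difference was 0.63 (standard error 0.13, adjusted p = 0.0213 from limma). Its other probes gave 0.45 and 0.55. *Nolc1*, whose product shuttles between nucleolus and cytoplasm and binds snoRNPs, was higher by 0.66 (standard error 0.16, adjusted p = 0.0422). *Ncl*, which encodes nucleolin, had a difference of 0.66 (standard error 0.19) at an adjusted p of 0.0843, with levels of 5.82, 5.55 and 5.61 in B16-M and 6.53, 6.28 and 6.15 in B16-D. This rested on the brightest probe, since the other *Ncl* probe, which was above background on all 16 arrays, gave -0.03. *Mybbp1a*, which encodes a MYB-binding nucleolar repressor, had 0.66 and *Ddx21*, an RNA helicase, 0.29, and neither passed.

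None of the 5 RNA polymerase I genes passed in any comparison of a dormant line with B16-M, and their median difference in B16-D was 0.40. *Polr1b*, the second largest subunit, had 0.60, *Polr1c* 0.46, the largest subunit *Polr1a* 0.40 and *Rrn3* 0.20, while *Ubtf*, the architectural factor of rDNA, had -0.20. The other *Ubtf* probe gave 0.10. All *Polr1a* arrays of B16-D (4.05, 4.11 and 4.05) lay above those of B16-M (3.74, 3.58 and 3.68) by a small margin.

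Of the 7 snoRNP genes, *Rrp9*, which encodes the U3-specific protein, was higher, at 1.87, 1.38 and 1.35 in B16-D against 0.85, 0.50 and 0.68 in B16-M. No arrays overlapped, and the difference was 0.86 (standard error 0.18, adjusted p = 0.0187). *Fbl*, the methyltransferase fibrillarin of the box C/D particles, had 0.54 (standard error 0.16, adjusted p = 0.0864), with 6.03, 5.39 and 5.66 in B16-M and 6.22, 6.14 and 6.34 in B16-D. Its lines did not overlap, although B16-M replicate 0 came within reach of the B16-D arrays. The box C/D core genes *Nop56* and *Nop58* had 0.57 and 0.30, and the H/ACA genes *Dkc1*, *Gar1* and *Nhp2* had 0.57, 0.33 and 0.30.

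Among the small-subunit factors *Wdr43*, a component of the processome, was higher, at 2.80, 2.72 and 2.77 in B16-D and 2.22, 1.67 and 2.12 in B16-M. The difference was 0.76 (standard error 0.17, adjusted p = 0.0306). *Rrp12*, a factor of pre-ribosome export, was higher by 0.66 (standard error 0.15, adjusted p = 0.0335) and the helicase *Ddx10* by 0.57. The remaining 9 small-subunit factors lay between -0.49 (*Utp18*) and 0.65 (*Nop14*) and did not pass.

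In the large-subunit group 4 of 16 factors were higher. *Nop16* had the second largest difference of all 46 genes, with 2.65, 2.46 and 2.12 in B16-D against 1.75, 1.07 and 1.61 in B16-M, a difference of 0.93 (standard error 0.24, adjusted p = 0.0488). *Nop2* followed with 0.76 (standard error 0.16, adjusted p = 0.0217), from 4.90, 4.37 and 4.58 in B16-M to 5.54, 5.24 and 5.35 in B16-D. *Gnl3*, which encodes the nucleolar GTPase nucleostemin, was higher by 0.69 (standard error 0.17, adjusted p = 0.0392) and *Wdr74* by 0.63 (standard error 0.15, adjusted p = 0.0389). The PeBoW genes *Bop1*, *Pes1* and *Wdr12*, whose products work as a complex, had 0.48, 0.38 and 0.55, and none passed. *Rrp1* had -0.14, the only value below 0 in this group.

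**Figure D1:**
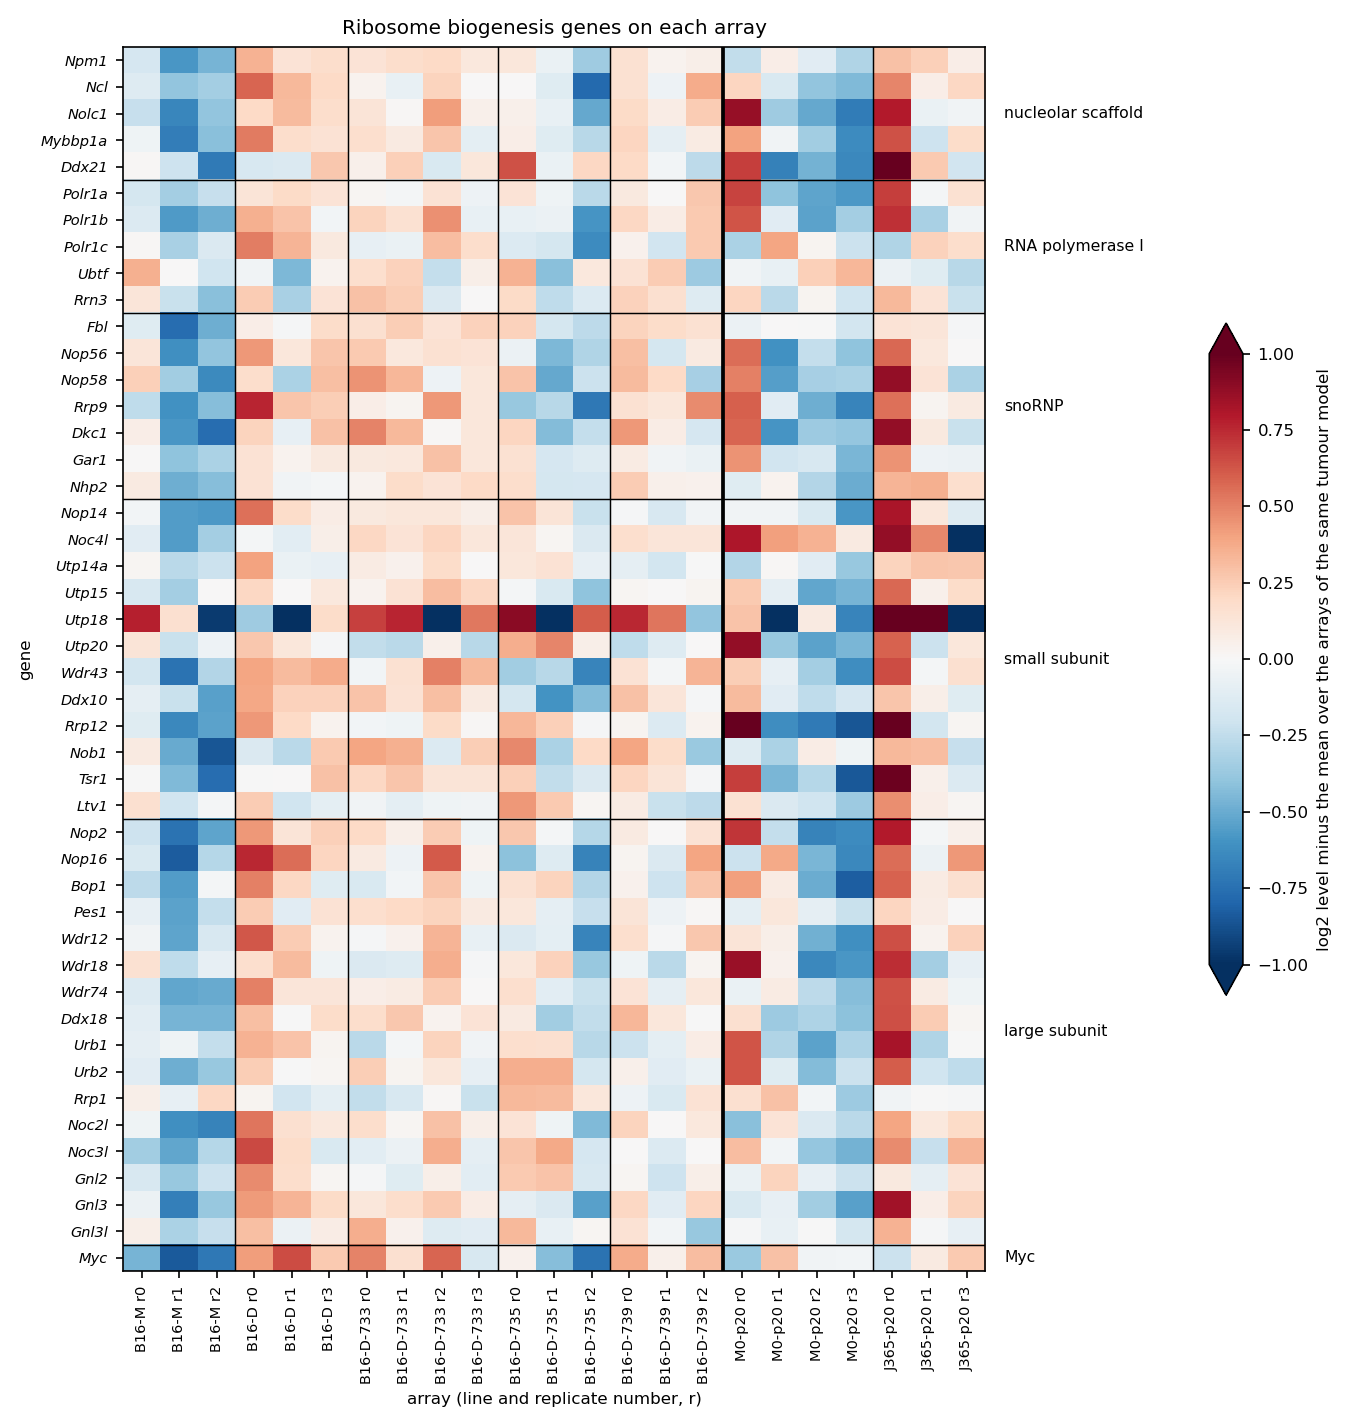
Level of each of the 46 genes (rows, grouped by role) on each of 23 arrays (columns), as the log2 level minus the mean of that gene over the arrays of the same tumour model, from blue (lower) to red (higher), with values beyond 1 shown at the end colours. Arrays B16-M replicates 1 and 2 are blue in nearly all rows and B16-M replicate 0 is paler, and in leukemia the arrays M0-p20 replicate 0 and J365-p20 replicate 0 are the reddest.

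The B16-M arrays were not alike in these genes. For each array the median over the 46 genes of the deviation from the melanoma mean was taken as a description, and it was -0.07 on B16-M replicate 0, -0.49 on replicate 1 and -0.39 on replicate 2. The B16-D arrays stood at 0.33, 0.13 and 0.13, and B16-D replicate 2 at -0.12. All 3 B16-D arrays used were above all B16-M arrays, and of the B16-M arrays replicate 0 lay nearest to them. The arrays lay on 3 slides, each with 1 B16-M array, which allowed comparison within slides. The median difference of the 46 genes between B16-D and B16-M was 0.58 on slide 1 (44 genes above 0) and 0.18 on slide 3 (38 genes above 0), and slide 2 held no B16-D array but replicate 2. With the slide as a block in the model, 11 genes passed again and the median was 0.50.

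**Figure D2:**
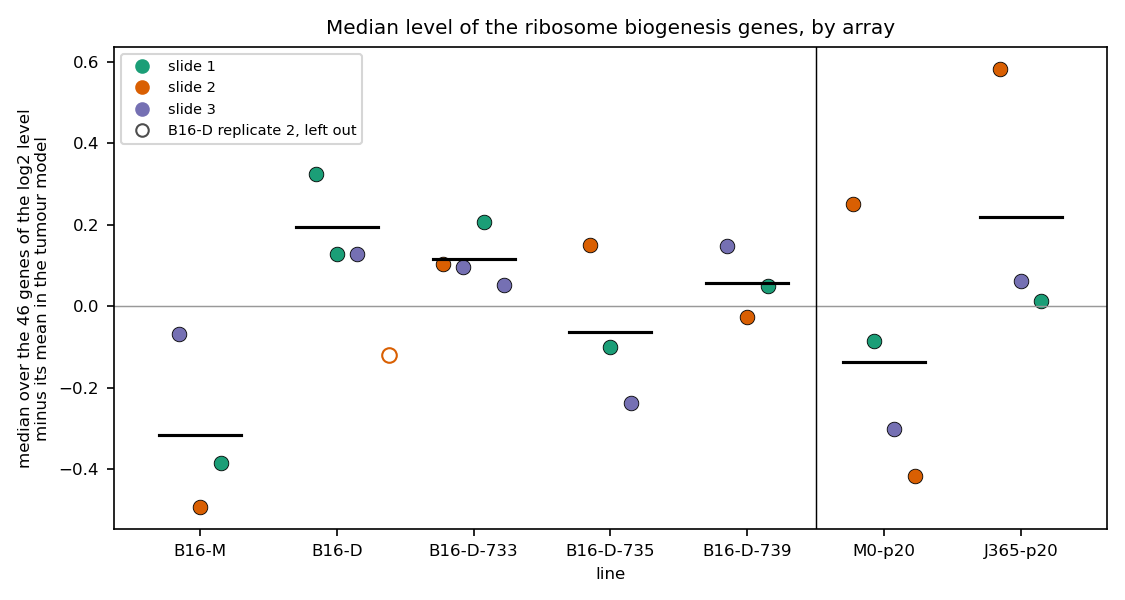
Median over the 46 genes of the log2 level minus its mean in the tumour model (vertical axis) for each array, by line (horizontal axis) and coloured by slide; bars are line means and the open circle is B16-D replicate 2, which was left out of the fits. B16-M replicate 0, on slide 3, is at -0.07, and the other B16-M arrays are at -0.49 and -0.39.

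Other factors of ribosome biogenesis were examined as separate lists. Of 114 further genes of the RNA polymerase I machinery, the subunit assembly factors, the snoRNPs and the exosome, 15 (13.2%) were higher in B16-D and none lower, with a median difference of 0.38. Among all genes tested 2.00% were called higher, and the median was -0.04. The 15 included *Polr1e* (0.79) and *Taf1c* (0.45) of the RNA polymerase I list. From the small-subunit list came *Rrp8* (0.80), *Heatr1* (0.65) and *Wdr3* (0.61), and from the large-subunit list *Zfp593* (0.74), *Ppan* (0.65) and *Ftsj3* (0.61). The subunit given is that of the list in which a gene was placed, and roles of single genes may differ. No gene of the exosome (12 genes, median 0.31), of the further snoRNP list (9 genes, 0.43) or of the MYC network around *Max* and the MXD repressors (9 genes tested, 0.14) passed. The 79 ribosomal proteins, the structural parts of the ribosome, had a median of 0.22 with 74 above 0, and none passed. In the 15 proliferation genes, which include *Mki67*, *Pcna* and the MCM helicase genes, the median was 0.11 and none passed.

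The second-generation lines were compared with the same 3 B16-M arrays, so these comparisons share their control values with the one above and with each other. In B16-D-733, 7 of 46 genes were higher than in B16-M and none lower, where 3.18% of all genes were called higher. The median difference was 0.46, beside 0.03 over all genes. In 26 genes all B16-D-733 arrays were above all B16-M arrays (11.3% of all genes). *Myc* stood at 1.88, 1.54, 1.96 and 1.22 on the B16-D-733 arrays, all above B16-M, a difference of 0.94 (standard error 0.21, adjusted p = 0.0178). The other 6 were *Fbl* (0.65, standard error 0.15, adjusted p = 0.0204), *Wdr43* (0.64), *Nop2* (0.61), *Nolc1* (0.58), *Npm1* (0.56, standard error 0.12, adjusted p = 0.0181) and *Noc4l* (0.51), a partner of *Nop14* in the small-subunit pathway. *Ncl* had 0.34 (standard error 0.18, adjusted p = 0.38), and its other probe -0.23.

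In B16-D-739, 3 of 46 genes were higher than in B16-M and none lower, where 2.15% of all genes were called higher. These were *Myc* (0.92, standard error 0.22, adjusted p = 0.0394), *Fbl* (0.64, standard error 0.16, adjusted p = 0.0413) and *Noc4l* (0.47, standard error 0.12, adjusted p = 0.0399). *Myc* was at 1.75, 1.43 and 1.69 on the B16-D-739 arrays, all above B16-M. *Fbl* was at 6.37, 6.34 and 6.30, within a far narrower range than on the B16-M arrays. *Npm1* had 0.49 (standard error 0.13, adjusted p = 0.0685) and *Ncl* 0.45 (standard error 0.19, adjusted p = 0.301). The median difference of the 46 genes was 0.38, beside 0.00 over all genes, and in 20 genes all B16-D-739 arrays were above all B16-M arrays (11.1% of all genes).

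In B16-D-735 *Rrp12* alone of the 46 genes passed against B16-M, higher by 0.62 (standard error 0.15, adjusted p = 0.0337), which is a share of 2.17% beside 3.07% of all genes. It stood at 3.37, 3.03 and 3.28 in B16-D-735, above the 2.92, 2.40 and 2.50 of B16-M. The median difference of the 46 genes was 0.22, beside -0.01 over all genes, and 2 genes, *Rrp12* and *Noc3l*, had all B16-D-735 arrays above all B16-M arrays (11.5% of all genes). *Myc* stood at 1.42, 0.64 and 0.95 on replicates 0, 2 and 1, overlapping B16-M, with a difference of 0.30 (standard error 0.22, adjusted p = 0.632). *Npm1* had 0.30 (standard error 0.13, adjusted p = 0.277), *Fbl* 0.39 (standard error 0.16, adjusted p = 0.229) and *Ncl* -0.01 (standard error 0.19, adjusted p = 0.999). The arrays of this line were spread, with per-array medians of 0.15, -0.24 and -0.10 on replicates 0, 2 and 1.

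All calls of the second-generation lines against B16-M were lost without B16-M replicate 1, without replicate 2, or with only the lines compared in the fit. Without B16-M replicate 0, 22 genes passed in B16-D-733, 7 in B16-D-739 and 2 in B16-D-735. In B16-D-733 there were 4, 2, 3 and 4 calls without its replicates 0, 1, 2 and 3, where replicates 1 and 3 are those with the repeated number, and none with the date in the title as a covariate. In B16-D-739 no call was left without any 1 of its arrays, and in B16-D-735 none without its replicate 0 or 1 and 2 without its replicate 2. With no filter on dim probes 1 gene passed in B16-D-733 and none in B16-D-739 or B16-D-735. Within slides, B16-D-733 had a median difference of 0.56 on slide 1, 0.63 on slide 2 and 0.13 on slide 3, and B16-D-739 had 0.48, 0.43 and 0.21. For B16-D-735 it was 0.29 on slide 1, 0.64 on slide 2 and -0.18 on slide 3, where 5 of the 46 genes were above 0. With the slide as a block the calls were 14 in B16-D-733, 6 in B16-D-739 and 3 in B16-D-735. Same-numbered arrays of B16-M and of B16-D-733 or B16-D-739 varied together, and with the replicate number as a block 14 genes passed in B16-D-733 and 6 in B16-D-739.

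**Figure D3:**
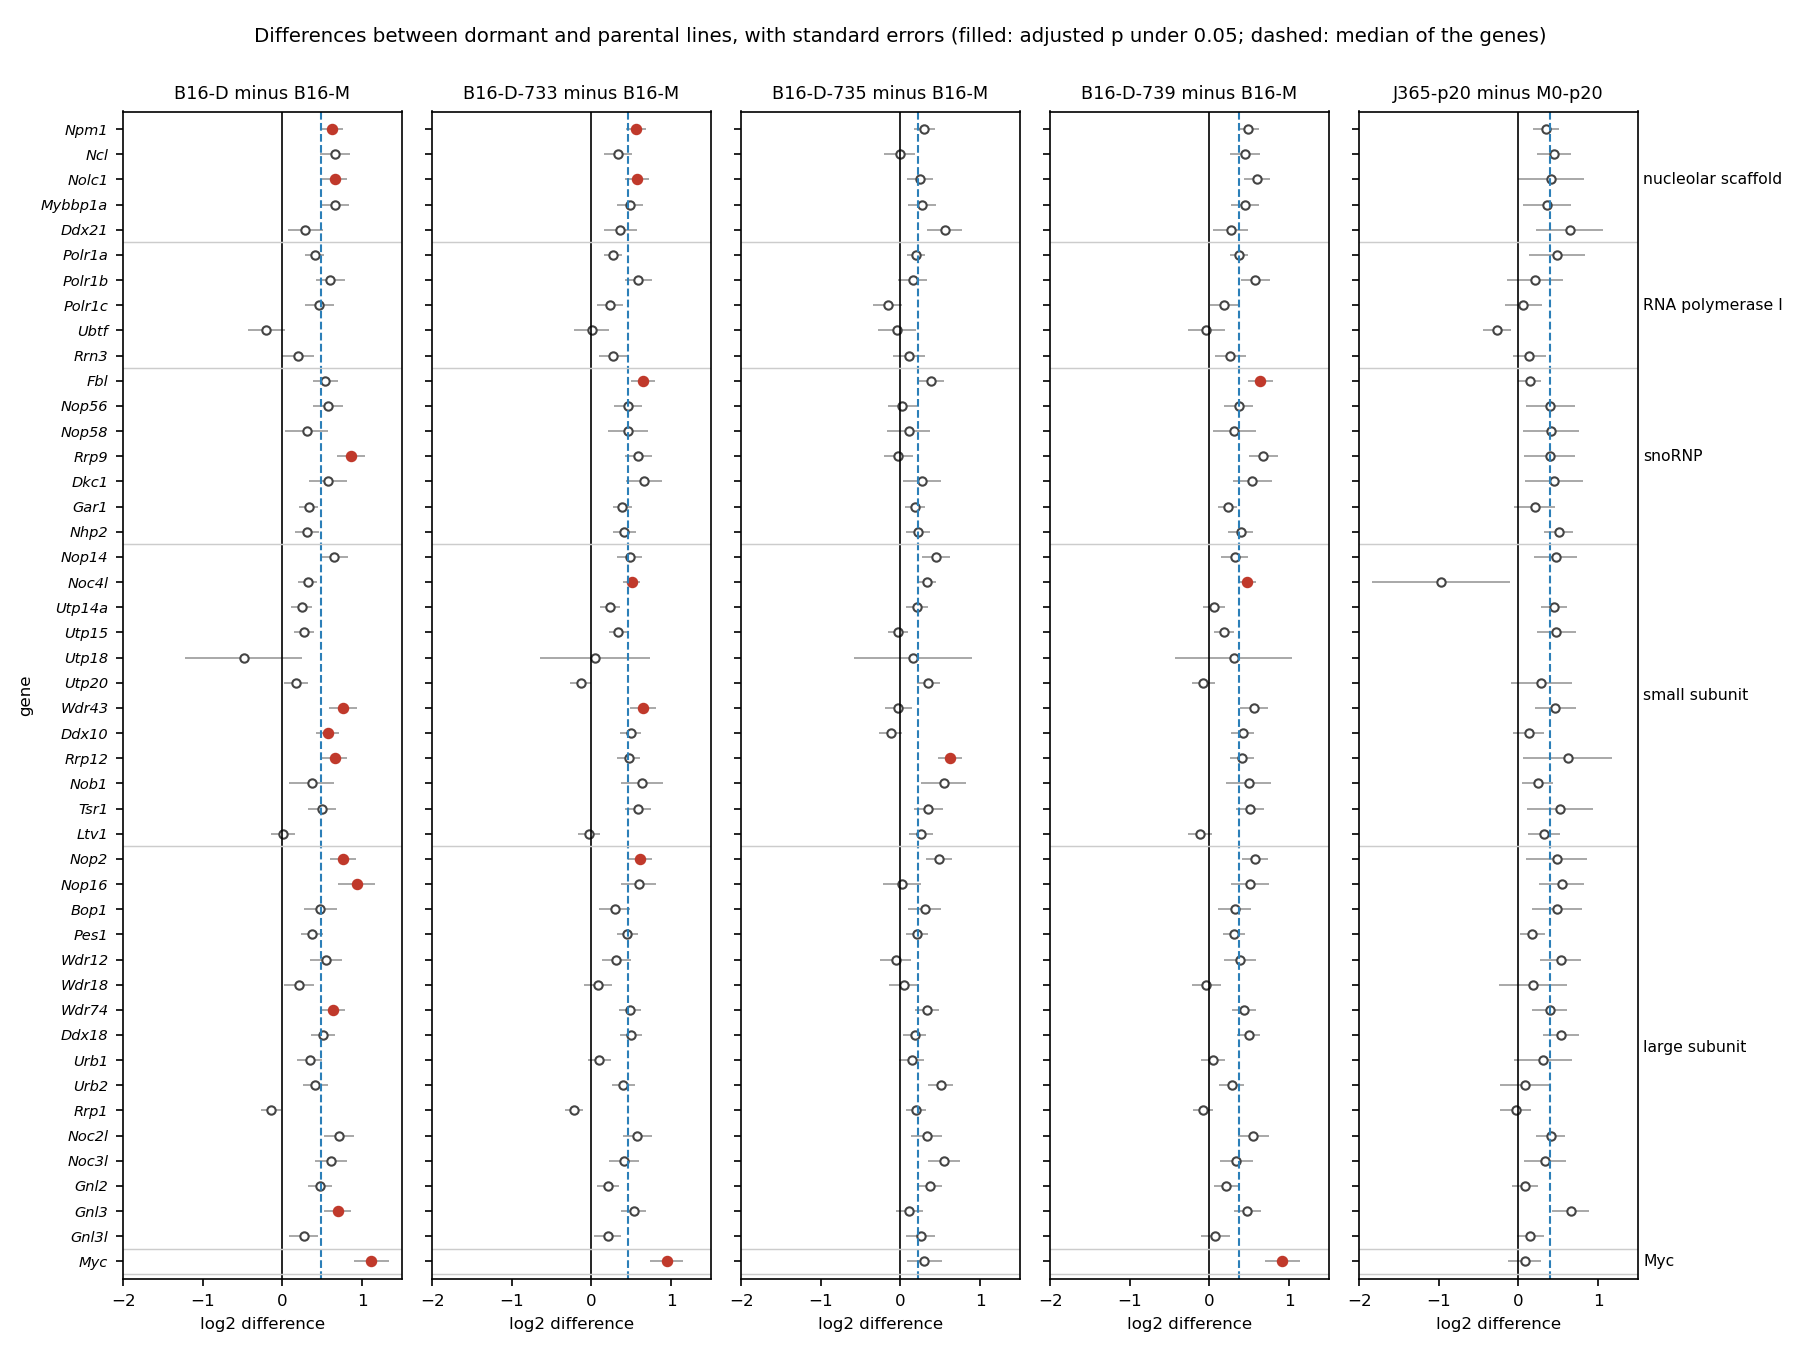
Log2 difference (horizontal axis) of each of the 46 genes (rows, grouped by role) between each dormant line and its parental line, with the standard error as a bar; filled red points have an adjusted p under 0.05 and the dashed line is the median of the genes. The medians are 0.49, 0.46, 0.22 and 0.38 in the 4 melanoma comparisons, which share their B16-M arrays, and 0.39 in leukemia, where no point is filled and *Utp18* was not tested.

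Of the 114 further ribosome biogenesis factors, 15 (13.2%) were higher in B16-D-733, beside 3.18% of all genes, and 5 (4.39%) in B16-D-739, beside 2.15%. In B16-D-735 there were 4 (3.51%), a share near the 3.07% of all genes. None was lower, and the medians were 0.33, 0.29 and 0.18. *Polr1e*, *Nifk* and *Heatr1*, named after their values were seen, passed in all 3 lines, with values from 0.46 to 0.70 for *Polr1e*, 0.47 to 0.57 for *Nifk* and 0.49 to 0.59 for *Heatr1*. *Max*, the partner of MYC, passed in B16-D-733 (0.47) and in B16-D-739 (0.41). None of the 79 ribosomal proteins and none of the 15 proliferation genes passed in any of these lines.

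The difference between dormant generations was tested directly. Between the mean of the 3 second-generation lines and B16-D no member passed, where 1.12% of all genes did, and at an unadjusted p under 0.05 there were 8 members (17.4%), beside 8.80% of all genes. The median difference was -0.16, beside 0.02 over all genes, and 36 of the 46 genes were below 0, beside 46.3% of all genes. The lowest value was that of *Nop16*, at -0.56, while *Myc* and *Ncl* had -0.40 each (standard errors 0.18 and 0.15, adjusted p = 0.555 and 0.416 in limma). *Npm1* had -0.17 and *Fbl* 0.02.

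B16-D-735 was then compared with the mean of its sister lines, a comparison that does not use B16-M. Earlier work on these data had named this line divergent. The comparison was thus chosen with results known, and its p-values and counts carry that choice. Of the 46 genes 3 were lower in B16-D-735, where 5.55% of all genes were called lower, and 1 was higher, where 5.31% were. *Rrp9* was lower by 1.58-fold (log2 difference -0.66, standard error 0.15, adjusted p = 0.0137), with 0.72, 0.39 and 0.83 in B16-D-735 and 1.13 to 1.58 in the sister lines. *Wdr43* differed by -0.62 (standard error 0.15, adjusted p = 0.0156), with 2.06, 1.75 and 2.12 against 2.38 to 2.91, and *Ddx10* by -0.58 (standard error 0.12, adjusted p = 0.00837). These 3 genes were among those higher in B16-D than in B16-M. The gene that was higher was *Utp20*, a large scaffold of the small-subunit processome, at 1.40, 1.10 and 1.52 against 0.76 to 1.09 (0.46, standard error 0.12, adjusted p = 0.0301). *Myc* had -0.63 (standard error 0.19, adjusted p = 0.0511) and was not called. The median of the 46 genes was -0.16, beside -0.02 over all genes, and the share called (8.70%) was near that of all genes. Without B16-D-735 replicate 1 or replicate 2 there were 2 calls. Of the 114 further factors 14 (12.3%) were lower, beside 5.55% of all genes, and 1 (0.877%) was higher, beside 5.31%. The lower ones included *Ppan* (-0.56), *Wdr3* (-0.53), *Wdr46* (-0.52) and *Exosc8* (-0.51). Of the 15 proliferation genes *Mcm4* (-0.42), *Ccna2* (-0.40) and *Aurka* (-0.33) were lower.

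**Figure D4:**
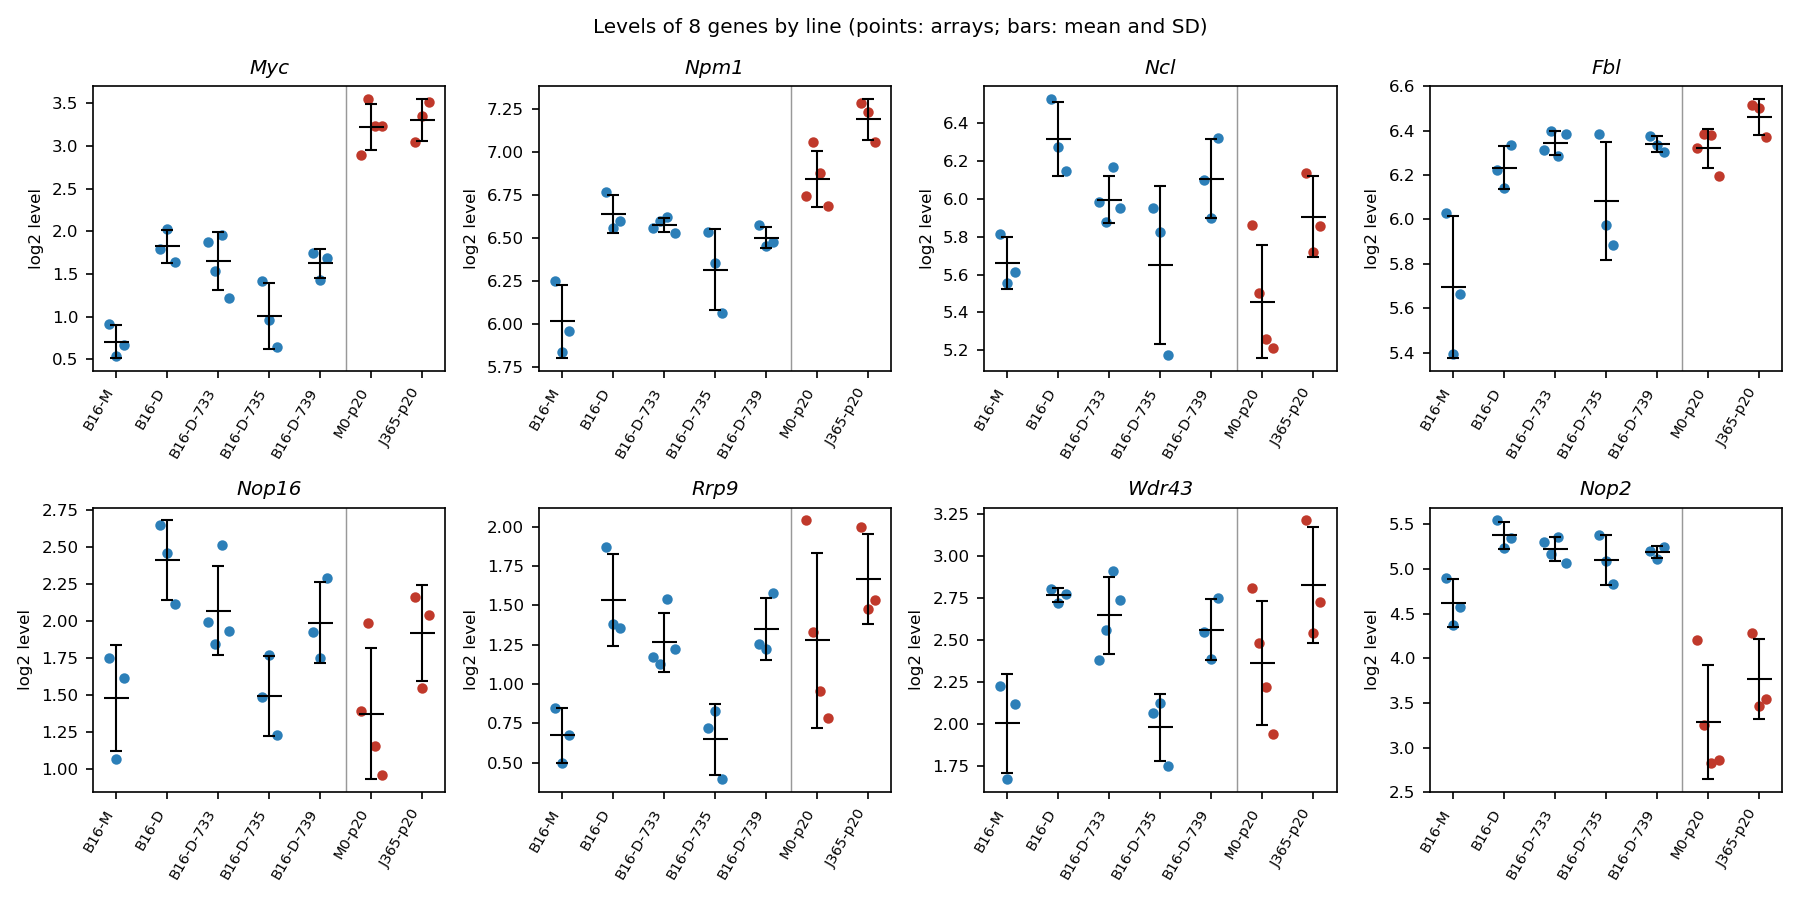
Log2 level (vertical axis, own scale in each panel) of 8 genes on each array by line, melanoma in blue and leukemia in red, with the mean and SD of the line as black bars. *Myc* is above all B16-M arrays on every array of B16-D, B16-D-733 and B16-D-739, while the B16-D-735 arrays (0.64 to 1.42) overlap B16-M (0.54 to 0.91).

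In leukemia no gene of the 45 tested passed between J365-p20 and M0-p20, where 1.07% of all 22967 genes did. At an unadjusted p under 0.05 there were 4 (8.89%), beside 6.89% of all genes. Nevertheless 42 of the 45 genes had a value above 0, beside 47.5% of all genes, and the median was 0.39, beside -0.02 over all genes. In 3 genes, *Nhp2* (0.50), *Utp14a* (0.45) and *Gnl3* (0.65), all J365-p20 arrays were above all M0-p20 arrays, which held for 5.01% of all genes.

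*Myc* was at 3.04, 3.35 and 3.52 in J365-p20 and at 2.89, 3.55, 3.23 and 3.23 in M0-p20. The lines overlapped, and the difference was 0.08 (standard error 0.21, adjusted p = 0.985). *Npm1* stood at 7.28, 7.23 and 7.05 against 6.74, 7.06, 6.88 and 6.69, a difference of 0.35 (standard error 0.16, adjusted p = 0.808), and its other probes gave -0.06 and -0.05. *Ncl* had 0.45 (standard error 0.21, adjusted p = 0.821) and 0.69 on its other probe. *Fbl* had 0.14 (standard error 0.15, adjusted p = 0.975).

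The lowest value in leukemia was that of *Noc4l*, at -0.97, and it came from 1 array. The level was 3.97 and 3.57 on J365-p20 replicates 0 and 1 and 0.05 on replicate 3, against 3.18 to 3.90 in M0-p20. Its second probe read 2.34, 1.96 and 2.29 on the same J365-p20 arrays, with no low array, and gave a difference of 0.20.

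The leukemia arrays of each line varied in these genes. The per-array median was 0.25, -0.09, -0.30 and -0.42 on M0-p20 replicates 0 to 3 and 0.58, 0.06 and 0.01 on J365-p20 replicates 0, 1 and 3. Replicate 0 was thus the highest array of each line, and M0-p20 replicate 0 exceeded 2 of the 3 J365-p20 arrays. Within slides the median difference was 0.13 on slide 1, 0.60 on slide 2 and 0.32 on slide 3. Without J365-p20 replicate 0 it was 0.18. *Rrp12* is an example, at 3.06 on M0-p20 replicate 0 and 3.16 on J365-p20 replicate 0 against 1.08 to 1.95 on the other 5 arrays. The 114 further factors had a median of 0.26 and the ribosomal proteins 0.02, and none of either passed.

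Whether the dormancy difference itself differed between tumours was tested as an interaction in a fit of all 23 arrays. No member passed of 45, where 1.36% of all genes did, and at an unadjusted p under 0.05 there was 1 (2.22%, beside 7.87% of all genes), which was *Myc*. Its difference was larger in melanoma by 1.04 (standard error 0.30, adjusted p = 0.131 in limma). For *Fbl* the value was 0.40 (standard error 0.19, adjusted p = 0.671), for *Npm1* 0.28 (standard error 0.18, adjusted p = 0.911) and for *Ncl* 0.21 (standard error 0.28, adjusted p = 0.999). *Noc4l* had the highest value, 1.29, which rests on the same J365-p20 array as above. The median over the 45 genes was 0.13, beside -0.03 over all genes, and without M0-p20 replicate 0 it was -0.003.

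The parental lines of the tumours were compared as a background to these values. Between B16-M and M0-p20, 16 of the 45 genes were higher in B16-M, where 21.2% of all genes were called higher, and 11 were lower, where 30.5% were. *Myc* was 5.75-fold lower in B16-M (log2 difference -2.52, standard error 0.21, adjusted p = 5.9e-09), and no melanoma array of any line reached the lowest leukemia array (2.89). *Ddx10* followed, 2.89-fold lower, and *Npm1* was lower by 1.77-fold and *Fbl* by 1.54-fold, with adjusted p of 1.76e-05 and 0.000602 in limma. In the other direction stood *Polr1a*, 4.26-fold higher in B16-M, *Wdr18*, 3.54-fold higher, and *Nop2*, 2.52-fold higher. *Polr1a* was at 3.74, 3.58 and 3.68 in B16-M and at 2.46, 1.38, 1.25 and 1.21 in M0-p20, without overlap. *Noc4l* did not pass, although its levels were 2.12 to 2.56 in B16-M and 3.18 to 3.90 in M0-p20. The fit of 23 arrays, which gave the spread, held the low J365-p20 array (0.05), and its part in this was not tested. The roles were split: of the RNA polymerase I genes 3 were higher in B16-M and 1 was lower, of the snoRNP genes 2 and 3, of the small-subunit factors 5 and 2, and of the large-subunit factors 5 and 3. The 79 ribosomal proteins differed in 1 direction, since 76 were lower in B16-M and none higher, with a median of -0.84, beside -0.22 over all genes tested. In the MYC network the repressor *Mxi1* was lower in B16-M by 3.55 on the log2 scale, while *Mxd3* was higher by 2.30 and *Mlx* by 1.00.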

How the data were processed

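RNA of 24 cell line samples was hybridised to 24 arrays on 3 slides of 8, 1 colour each. Per the file headers and the submitters' processing notes, the authors extracted spot intensities with Agilent Feature Extraction 10.7.3.1, and the deposited processed signals are background-subtracted intensities. The deposited value table of the series held the same intensities (largest difference 0).

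For this report log2 of the processed signal was taken relative to the 75th percentile of the array, leaving out control spots, and spots of a probe were averaged. Probes were joined to symbols through RefSeq accessions, and the brightest probe over 23 arrays stood for a gene. The 22711 transcripts without a symbol on the array were kept, each as a gene of its own. A gene was tested if well above background on at least 3 arrays of each tumour model in the fit. Fits of 16 melanoma, 7 leukemia and 23 arrays in all were made with lmFit and eBayes of limma 3.58.1 (R 4.3.3), with Benjamini-Hochberg adjustment over all genes tested. The code was tested on simulated data. B16-D replicate 2 was left out (90.3% of spots well above background). The number of arrays limits the precision.

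The 46 genes and the other lists were chosen with earlier results of these data known, and so was the comparison of B16-D-735 with its sister lines. All 46 could be named. Full statistics were given for up to 10 genes past the threshold in a comparison, and in every dormancy comparison for *Myc*, *Npm1*, *Ncl* and *Fbl*, and up to 3 genes of each other list were named by size. Alternatives changed the scaling, the background correction, the filter, the probe, the slide or replicate block, the arrays in the fit and the source of values. The normexp alternative used the median spot signal, since the files held no mean signal.

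Pairing was checked by correlating, over all genes, the deviations of same-numbered arrays from their line means. For B16-D-733 with B16-M it gave 0.58, 0.35 and 0.82, and for B16-D-739 with B16-M 0.75, 0.58 and 0.83, so the numbers were taken to pair these lines. Arrays with different numbers were not correlated, so the check had no baseline and cannot establish pairing. Same-numbered arrays of B16-M and B16-D-739 also shared slides, as did replicate 2 of B16-M and of B16-D-733 (slide 1). Number and slide cannot be told apart for these arrays. The main fits did not use the pairing.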

Additional observations from a re-analysis of the deposited data

Results flagged for a closer look

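In lines with 4 arrays each gene was examined for an array far from the other 3, and 14 of 138 combinations of gene and line (10.1%) were picked out. Among independent values the rule would pick out about 1 in 20. Genes measured on the same arrays are not independent, so the share cannot be read against chance. Of these 5 were on M0-p20 replicate 0, 4 on B16-D-733 replicate 2, 2 on B16-D replicate 2 and 1 each on B16-D replicates 0 and 3 and B16-D-733 replicate 1.

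M0-p20 replicate 0 stood above the other M0-p20 arrays in log2 level for *Ddx21* (2.76 against 1.40 to 1.60), *Polr1a* (2.46 against 1.21 to 1.38), *Utp20* (0.86 against -0.55 to -0.39), *Rrp12* (3.06 against 1.08 to 1.31) and *Ddx18* (3.05 against 2.48 to 2.58). On B16-D-733 replicate 2, *Gar1* was at 4.67 (4.48 to 4.49 on the others), *Utp20* at 1.09 (0.76 to 0.79), *Noc3l* at -0.32 (-0.79 to -0.74) and the dim *Utp18* at -6.51 (-4.16 to -3.93). *Ltv1* was at 3.07 on B16-D-733 replicate 1 (3.13 to 3.14).

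B16-D replicate 2, which the fits left out, was lowest in its line for *Polr1a* (3.68 against 4.05 to 4.11) and *Wdr43* (2.32 against 2.72 to 2.80). *Utp14a* was at 1.24 on B16-D replicate 0 (0.70 to 0.77 on the others) and *Ddx21* at 3.12 on B16-D replicate 3 (2.69 to 2.75).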

How the results depend on the processing

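The median difference of the members moved by less than the spread between arrays under every alternative run without leaving out an array, while counts of members called did not keep. This spread, the SD of array medians within lines, was 0.14 in the melanoma fit, 0.30 in leukemia and 0.19 in all arrays. It exceeded the interaction median of 0.13, and the leukemia median was 0.39, so this yardstick is a loose one there. For B16-D against B16-M (11 called) there were 2 with no filter on dim probes, 0 with only the lines compared in the fit, 2 with B16-D replicate 2 added and 5 with the date in the title as a covariate. For B16-D-733 (7) there were 14 with a gene above background on every array, with the slide as a block or with the replicate block, 1 with no filter, 0 with only the lines compared, 4 with B16-D replicate 2 and 0 with the date covariate. For B16-D-735 (1) there were 0 with normexp, no filter, the mean of all probes, only the lines compared or B16-D replicate 2, 3 with the slide block and 2 with the replicate block. For B16-D-739 (3) there were 6 with quantile normalization, above background on every array, the slide block or the replicate block, 0 with no filter or only the lines compared, and 1 with B16-D replicate 2. B16-D-735 against its sister lines (4) had 7 with quantile normalization or the slide block. Over all comparisons, genes with another probe were also fitted with it in place of the brightest. Of these results 25 kept their status, 11 lost their call, 1 gained a call and 6 turned sign. The cause of these changes was not tested.

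Leaving out 1 array at a time, members called ranged from 0 to 17 in B16-D, 0 to 22 in B16-D-733, 0 to 2 in B16-D-735, 0 to 7 in B16-D-739, 2 to 5 between B16-D-735 and its sisters and 20 to 29 between B16-M and M0-p20, and were 0 in the other comparisons. Medians ranged from 0.39 to 0.63, 0.34 to 0.59, 0.11 to 0.35 and 0.30 to 0.54 for the 4 dormant melanoma lines against B16-M, -0.20 to -0.06 between generations, -0.29 to -0.09 for B16-D-735 against its sisters, 0.18 to 0.52 in leukemia, -0.0032 to 0.33 for the interaction (the lowest without M0-p20 replicate 0) and 0.12 to 0.34 between parental lines.

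In the replicate block B16-D had 13 called. For B16-D, B16-D-735 and J365-p20 the numbers were not taken to pair with the parental arrays, since correlations ranged over 0.04 to 0.28, -0.34 to 0.80 and -0.04 to 0.51.

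Signs turned for *Myc* in leukemia with the mean of all probes (-0.0047), its other probe (-0.088), without M0-p20 replicate 0 (-0.033) and without J365-p20 replicate 3 (-0.029), with a range of -0.033 to 0.21 over the arrays left out, and for *Npm1* there on its other probes (-0.058 and -0.055). *Ncl* turned on its other probe in B16-D (-0.032), B16-D-733 (-0.23) and the interaction (-0.72), there also with the mean of all probes (-0.26), and in B16-D-735 without B16-M replicate 0 (0.07) or without B16-D-735 replicate 2 (0.23), with a range of -0.16 to 0.23 over the arrays left out.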
